A study of Homo sapiens with 6 samples.

Results

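The windows described here lie at the start sites of the replication-dependent histone genes, which sit close together in clusters on chromosomes 6 and 1. They were chosen by position alone: every protein-coding (PCG) window that began on chromosome 6 at 26.015 to 26.29, 27.1 to 27.2 or 27.78 to 27.9 Mb, or on chromosome 1 at 149.83 to 149.9 Mb, all on GRCh38. The 4 stretches held 31, 6, 16 and 11 windows, which made 64 of the 53603 windows of the study and of its 22988 PCG windows. Each window was 400 bp long, with 150 bp before and 250 bp after its start site. Of the 64, 61 belonged to 59 histone genes: 4 windows to the linker histone H1, 15 to H2A, 17 to H2B, 12 to H3 and 13 to H4. The other 3 belonged to BOLA1, with 2 windows, and HFE, so the label fitted the chosen windows with these 3 exceptions.

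HEK293T, a cell line derived from human embryonic kidney, was transfected with siRNA at 150 nM, either control or targeting SSB, the gene of the RNA-binding protein La, and small RNA was sequenced 48 h later. Each arm had 3 libraries, which the series text calls biological replicates. Both arms got the same lipid reagent, and the labels name no other agent. Each library held between 3066299 and 4105806 counts over all windows. RNA was purified with a small RNA kit, and its ends were treated with a phosphatase and then a kinase, so RNA with various ends could enter the libraries. The 2 windows at SSB itself were too thinly read to check the knockdown: the better one held 4, 3 and 3 control counts and 1, 0 and 0 La counts.

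Replication-dependent histone genes are short genes without introns that are transcribed by RNA polymerase II while DNA is copied. Their mRNAs carry no poly(A) tail and end in a conserved stem-loop that is bound by the stem-loop binding protein. H2A, H2B, H3 and H4 form the nucleosome core, and H1 binds the DNA between nucleosomes. La binds the run of uridines at the end of new RNA polymerase III transcripts, such as tRNA precursors, and protects them. The design of the study asks whether La affects small RNA that arises at promoters, and these windows are the promoters of a gene class transcribed by RNA polymerase II.

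The upstream sequences are printed for the best-read genes, for pairs of near-identical copies and for 3 histone genes without any read, because they show the shared and the differing promoter parts at a glance. Each is the 150 bases before the RefSeq start of the gene, from RefSeq GRCh38.p14, written 5′ to 3′ along the gene's own strand. Capitals mark TATAAA, the TATA box that sets the start of transcription, and CCAAT, a box bound by the factor NF-Y, each on either strand (ATTGG and TTTATA are the reversed forms). The best-read genes were a core H2B gene and linker histone genes.
H2BC11, chr6:27132796-27132945, minus strand: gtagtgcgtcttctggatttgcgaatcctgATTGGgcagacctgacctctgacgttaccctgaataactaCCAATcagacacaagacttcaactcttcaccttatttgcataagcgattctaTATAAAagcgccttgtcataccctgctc
H1-2, chr6:26056471-26056620, minus strand: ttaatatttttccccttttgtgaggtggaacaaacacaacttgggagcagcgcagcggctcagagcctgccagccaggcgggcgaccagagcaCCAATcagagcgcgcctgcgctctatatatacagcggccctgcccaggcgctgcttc
H1-4, chr6:26156179-26156328, plus strand: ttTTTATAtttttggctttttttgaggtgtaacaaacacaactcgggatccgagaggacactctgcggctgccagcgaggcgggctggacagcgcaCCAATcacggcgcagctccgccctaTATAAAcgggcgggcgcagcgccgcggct
The next pairs are inverted copies on chromosome 1, of an H4 gene and of an H2A gene.
H4C14, chr1:149832507-149832656, plus strand: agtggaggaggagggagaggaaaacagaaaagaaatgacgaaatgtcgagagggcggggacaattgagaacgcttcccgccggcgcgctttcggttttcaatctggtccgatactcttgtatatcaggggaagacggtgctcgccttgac
H4C15, chr1:149861160-149861309, minus strand: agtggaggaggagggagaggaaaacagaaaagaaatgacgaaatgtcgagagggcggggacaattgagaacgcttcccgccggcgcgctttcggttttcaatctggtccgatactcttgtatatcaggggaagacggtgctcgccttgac
H2AC18, chr1:149842751-149842900, minus strand: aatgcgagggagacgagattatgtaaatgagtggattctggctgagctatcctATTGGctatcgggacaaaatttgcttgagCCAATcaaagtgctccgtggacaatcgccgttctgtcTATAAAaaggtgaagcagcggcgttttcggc
H2AC19, chr1:149850911-149851060, plus strand: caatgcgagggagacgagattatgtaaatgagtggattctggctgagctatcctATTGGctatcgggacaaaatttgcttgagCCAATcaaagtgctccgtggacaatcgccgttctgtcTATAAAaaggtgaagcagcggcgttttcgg
The last 3 genes were unread in all 6 libraries.
H4C6, chr6:26240243-26240392, plus strand: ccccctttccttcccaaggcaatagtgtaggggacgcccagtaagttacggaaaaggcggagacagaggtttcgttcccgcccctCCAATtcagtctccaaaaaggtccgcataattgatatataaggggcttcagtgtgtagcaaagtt
H1-5, chr6:27867589-27867738, minus strand: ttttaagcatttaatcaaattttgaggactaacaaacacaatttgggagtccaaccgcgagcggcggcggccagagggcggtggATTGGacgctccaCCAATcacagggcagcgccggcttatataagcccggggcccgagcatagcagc
H2BC10, chr6:26272781-26272930, plus strand: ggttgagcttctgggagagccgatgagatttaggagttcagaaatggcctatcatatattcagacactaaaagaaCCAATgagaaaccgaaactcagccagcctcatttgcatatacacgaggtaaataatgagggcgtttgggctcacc
Both groups showed histone promoter letters. H2BC11 and H1-4, which were well read, held a TATAAA close to the start and a CCAAT farther upstream. The best-read H2BC11 window lies inside the gene and holds none of the printed bases. The H2BC11 window over the gene's start averaged 9.83 counts. H1-2, also well read, held CCAAT but no TATAAA, and the well-read H4C14 and H4C15 held neither. H4C6, H1-5 and H2BC10, which were unread, also held CCAAT, and H1-5 shared the AAACACA of the H1 genes (aacaaacacaa in H1-2, H1-4 and H1-5).

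Of the 59 histone genes, 54 had a RefSeq promoter, and 4 short motifs were searched in their 150 upstream bases on both strands, beside all 35116 RefSeq promoters. TATAAA was present in 30 of 54 (55.6%), against 6.71% of all promoters. All 30 held it on the gene's own strand with its first base 32 to 27 bases before the start, median 30, whereas 2.30% of all promoters held it on that strand 40 to 20 bases before the start. CCAAT was present in 46 of 54 (85.2%), against 23.5% of all promoters. Every H1, H2A, H2B and H3 promoter with an entry held CCAAT, but 3 of 11 H4 promoters did. The octamer ATTTGCAT, bound by the factor Oct-1, was found in 12 of 15 H2B promoters, 4 of 14 H2A, 1 of 10 H3 and no H1 or H4 promoter, against 0.988% of all promoters. The H3 promoter was that of H3C4. Its octamer and CCAAT matches stood at the same positions as those of H2AC7, 119, 86 and 68 bases before the start. Whether that entry is the promoter at the H3C4 window was not checked, so the H3 counts are uncertain by it. AAACACA, known as the H1 box, was found in all 4 H1 promoters and in no other histone promoter, against 2.71% of all promoters. None of the 4 strings is contained in another on either strand. Among the 18 genes with a window that averaged at least 10 counts, 14 held TATAAA, and among the other 36 genes 16 did. CCAAT was held by 14 of 18 and 32 of 36. H2BC11 is among the 18 by a window that does not cover its upstream bases. These matches describe letters in the upstream bases and were not tested against the counts.

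**Figure D1:**
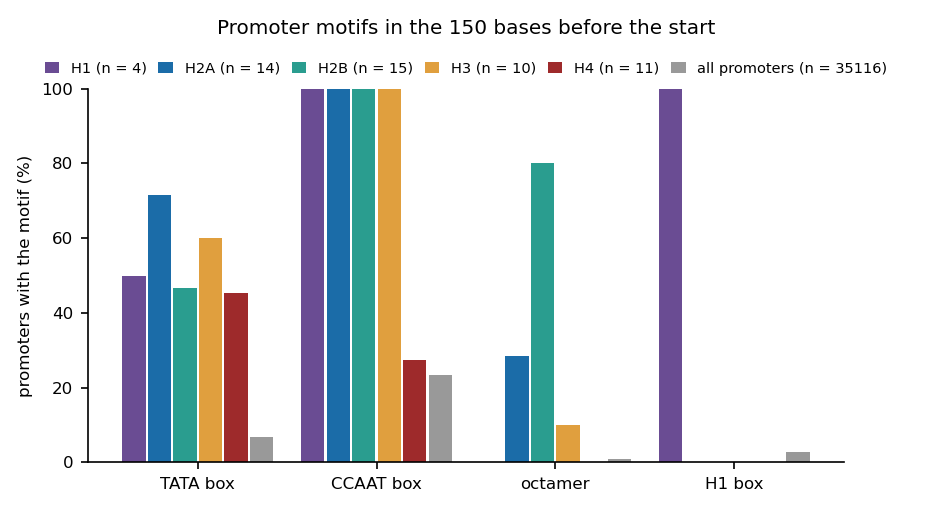
Percentage of promoters that hold each motif (vertical axis, %) in the 150 bases before the RefSeq start, for the 5 histone families and for all promoters; the number of promoters is in the key. CCAAT stands at 100% in H1, H2A, H2B and H3 and at 27.3% in H4, the octamer reaches 80% in H2B, and the H1 box stands only in H1 and, at 2.71%, in all promoters.

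Small RNA was found at histone windows far more often than at other protein-coding windows. At least 1 read fell in 58 of 64 histone windows (90.6%), against 13194 of 22828 other PCG windows that hold no small RNA gene (57.8%). Reads in all 6 libraries were found at 40 histone windows (62.5%) and at 736 of the others (3.22%). A mean of at least 10 counts per library was reached by 20 histone windows (31.2%) and by 78 of the others (0.342%). The median window of the clusters averaged 6 counts per library and the median other window 0.167. In single libraries, between 70.3% and 78.1% of histone windows held a read, against 19.8% to 26.2% of the other PCG windows, so the ranges of the 2 kinds of window did not overlap. No histone window overlapped a small RNA gene or a window of a small RNA class. The nearest tRNA window lay 692 bp away, and the median distance was 75528 bp. These shares are descriptions, because neighbouring windows overlap and their counts are not independent.

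**Figure D2:**
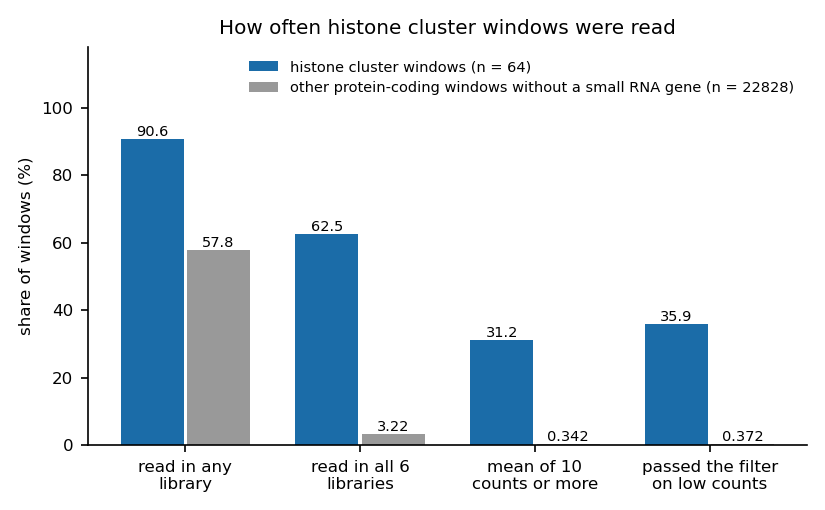
Share of windows (vertical axis, %) that were read in any library, read in all 6, averaged 10 counts or more, or passed the filter on low counts, for the 64 histone cluster windows and for 22828 other protein-coding windows without a small RNA gene. The histone bars are the higher in each pair, with 62.5% against 3.22% for reads in all 6 libraries.

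The reads were concentrated in few windows. The best-read window held 11.2% of all counts in the 64, the best 5 held 34.3% and the best 20 held 73.7%. In the order of all 22988 PCG windows by mean count, 20 histone windows stood among the top 100 and 8 among the top 50. At the other end, 44 windows averaged fewer than 10 counts and 6 had no read: those of H4C6, H3C8, H2BC10, H1-5 and HFE and 1 of the BOLA1 windows. A count of 0 over the 6 libraries allows up to 3 counts, which is 0.147 CPM, the count scaled to a common library size. That limit covers counting error only.

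CPM values were scaled by TMM factors, and since all windows are 400 bp long they can be set side by side. H2BC11 (HIST1H2BJ, window PCG_701, chr6:27132299-27132698) was the highest, with 73, 61 and 83 control counts and 49, 62 and 63 La counts. Its level ran from 17.6 to 21.5 CPM, median 18.7, and lay above the next window in each of the 6 libraries. H1-2 (HIST1H1C, chr6:26056221-26056620) followed with 55, 45 and 39 control counts and 32, 33 and 46 La counts, between 9.72 and 14.5 CPM. H1-4 (HIST1H1E, chr6:26156179-26156578) held 54, 28 and 41 counts and then 30, 46 and 21, between 6.62 and 14.1 CPM. The order of these 2 linker histone windows was not fixed: H1-2 was above H1-4 in 4 of 6 libraries. H4C14 (HIST2H4A, chr1:149832519-149832918) came next with 31, 37 and 39 control counts and 28, 27 and 16 La counts. From H4C14 downward, neighbours in the order differed by less than their spread over libraries: each window exceeded the next in 2 to 5 of 6 libraries. H2BC5, H4C15, H2BC12, H2AC11, H4C5 and H2BC21 averaged 17 to 26.3 counts. H2AC17, H4C2, H2AC12, H2AC18, H2AC6, H4C3, H2AC19, H3C15, H3C2 and H2AC20 averaged 11.5 to 14.5 counts.

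**Figure D3:**
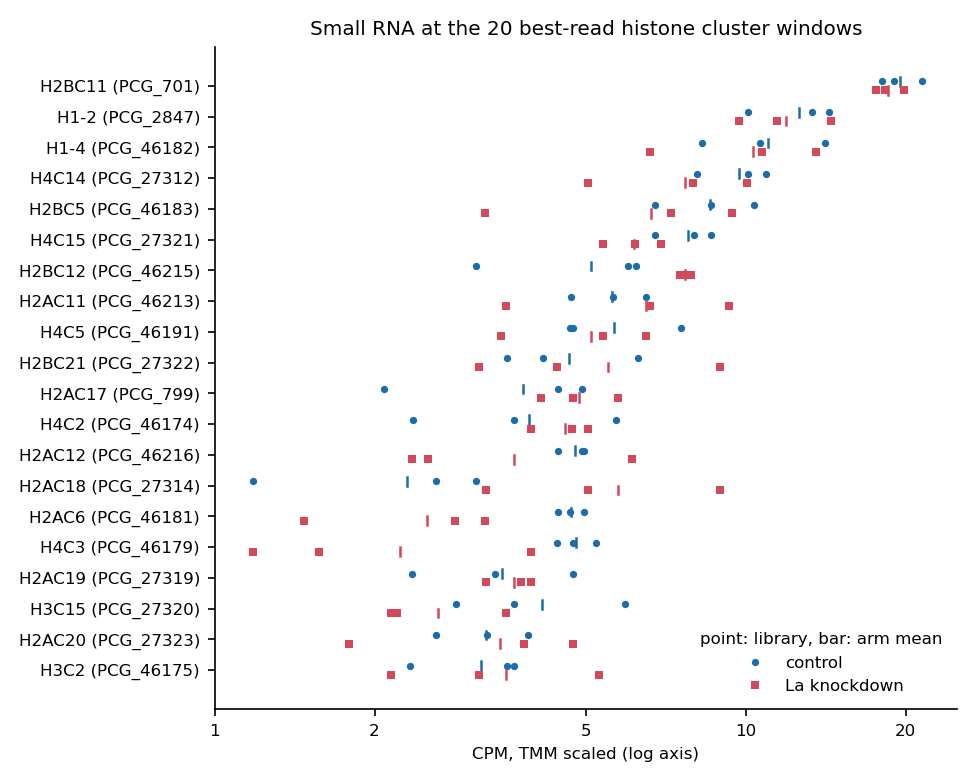
Level of the 20 histone windows that averaged at least 10 counts (horizontal axis, TMM-scaled CPM, log scale), with 1 point per library, control and La knockdown in separate colours, and a short line at each arm's mean. H2BC11 stands to the right of all other windows, and the points of the arms interleave in most rows.

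By family, H2B windows held 28.8% of the counts of the clusters, H4 windows 25.1%, H2A windows 22.7%, H1 windows 13.9% and H3 windows 9.18%. All 15 H2A windows were read, as were 16 of 17 H2B, 11 of 12 H3, 12 of 13 H4 and 3 of 4 H1 windows. Members of a family differed widely. Among the linker histone genes, H1-2 averaged 41.7 counts and H1-4 36.7, while H1-3 averaged 2.5 and H1-5 was unread, although all 4 promoters hold the H1 box and CCAAT. In H4, H4C14 averaged 29.7 counts and H4C9 0.5. In H3, the best-read window, of H3C15, averaged 11.7 counts, and H3C8 was unread.

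H2A and H2B genes often stand back to back with a shared promoter, and 10 such pairs had overlapping windows, with starts 194 to 293 bp apart. The H2A side held more reads in 8 of these 10 pairs by mean, counting the H2BC11 window at the gene's own start. In 1 of the 8, H2AC15 with H2BC15, the means were 3 and 2.5 counts and the H2B side was the higher in 3 libraries and the H2A side in 2. H2AC14 averaged 4.5 counts and H2BC14 across from it 0.167, and the H2A side was the higher in 6 of 6 libraries. H2AC7 averaged 7 counts against 1.5 at H2BC7, and H2AC17 14.5 against 8 at H2BC17, each higher in 5 of 6 libraries. The pairs H2BC21 with H2AC20 (17 and 11.5 counts) and H2BC12 with H2AC12 (21.3 and 14.3) went the other way, with the H2B side higher in 5 of 6 libraries. A read between the starts can fall in both windows, so the members of a pair share part of their counts.

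Where windows overlapped, their counts showed where along a gene the reads lay, provided that a read is counted in each window it touches, which is not given in the sources used here. The best-read window was not at a gene's start. PCG_701 covered bases 98 to 497 of H2BC11, a gene of 480 bases, and was the only 1 of the 64 to reach past the end of a histone gene. PCG_702 (chr6:27132523-27132922), which covers the start of H2BC11, held 8, 5 and 19 control counts and 11, 9 and 7 La counts. It overlapped PCG_701 by 176 bp and held 59 counts over the 6 libraries, against 391 at PCG_701. So at least 332 of the 391 counts touched no base of PCG_702 and lay toward the end of the gene. At H1-2, a lncRNA window covered bases 394 to 793 of the 731-base gene and averaged 27.0 counts, with 33, 27 and 21 control counts and 23, 43 and 15 La counts. At H2BC6, a lncRNA window over bases 103 to 502 of the 470-base gene held 34 counts in all, against 17 at the histone window it overlaps. The far ends of 3 more genes lay in lncRNA windows with few reads: 12 counts at H4C8, of which 8 were in La replicate 3, 2 counts at H4C9 and 1 at H3C11. Of these 6 far-end windows, those of H2BC11 and H1-2 were the best read.

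**Figure D4:**
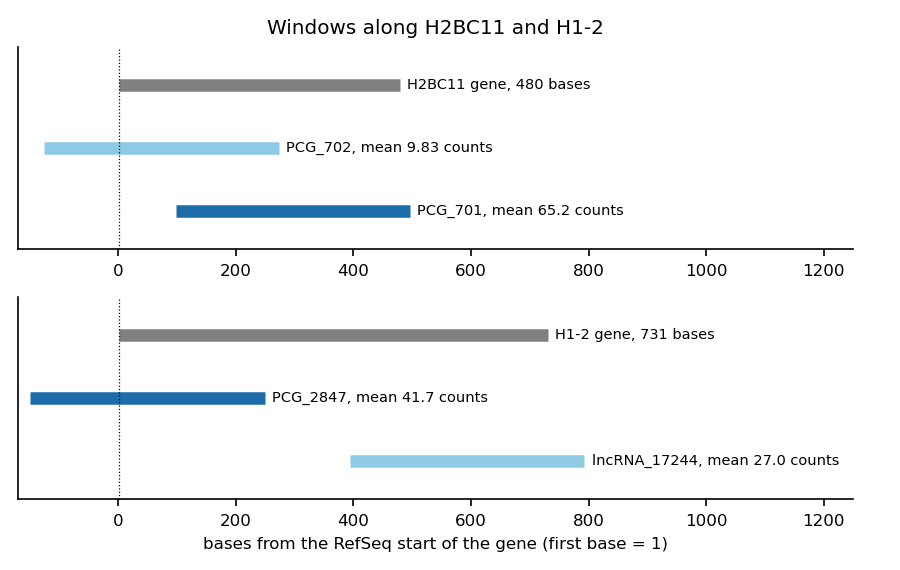
Windows along H2BC11 and H1-2, drawn to scale in bases from the RefSeq start (horizontal axis), with grey bars for the genes and blue bars for windows and their mean counts per library. In H2BC11 the window over the gene's end averaged 65.2 counts and the window over its start 9.83; in H1-2 both ends were read.

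At 5 of the better-read genes a lncRNA window shared upstream bases with the histone window. At H4C5 a lncRNA window shares 158 bp with the histone window, from base 150 upstream into the start of the gene. This lncRNA window held 4 counts in all, against 111 at the histone window. At H4C8 the window that shares the 150 upstream bases held 3 counts against 59. At H2AC19 the window that shares bases 150 to 31 upstream held 5 counts against 72. At H2AC18 and H2BC5, whose lncRNA windows also share upstream bases, the values were 23 against 78 and 19 against 158. At H2AC18 the shared 176 bp run from base 150 upstream into the start of the gene. At H2BC5 only bases 150 to 93 upstream are shared, and at H2AC19 the last 30 upstream bases are not shared. Under the same counting assumption, at least 107 of 111 counts at H4C5, 56 of 59 at H4C8 and 55 of 78 at H2AC18 touched no base of the upstream window. At H2BC5 and H2AC19 the counts cannot be placed outside the upstream bases. Strand is not given, so the direction of the RNA is unknown.

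Near-identical copies set a limit on single genes, because how the authors placed reads with several positions is not given. The median histone gene shared 30.3% of the 20-base stretches in its first 250 transcript bases with another histone gene. The median was 0.433% in H1, 13.4% in H4, 16.7% in H3, 42.9% in H2A and 45.5% in H2B. H4C14 and H4C15, the inverted copies on chromosome 1, have identical sequence over all 300 bases of their RefSeq promoter entries and averaged 29.7 and 24 counts. H2AC18 and H2AC19 share an identical run of 299 bases and averaged 13 and 12 counts, and H3C14 and H3C15 share 296 bases and averaged 8.67 and 11.7. The level of each of these copies is uncertain, whereas H1-2 and H1-4 share 0.433% and 0% of their stretches with other histone genes. H2BC11, the gene of the best-read window, shares 33.8%. Only the first 250 transcript bases were compared, so sharing toward the end of H2BC11 was not measured.

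No histone window passed the test of La knockdown against control. By edgeR's quasi-likelihood test, with Benjamini-Hochberg adjustment over the 1064 windows left by the filter on low counts, 58 windows (5.45%) had an adjusted p under 0.05. Of these, 51 (4.79%) fell and 7 (0.658%) rose in the La libraries. Of the 64 histone windows 23 passed the filter, and 0 fell and 0 rose. With no adjustment, 3 of 23 had an edgeR p under 0.05, against 23.9% of all tested windows, which are of all classes. Among the 85 tested PCG windows outside the stretches that hold no small RNA gene, 12 had such a p. The arms' CPM ranges did not overlap at 4 of 23, against 32.0% of all tested windows. DESeq2 also called 0 of the 23 histone windows, with 1 at an unadjusted p under 0.05. Its share over all tested windows was not computed. The fitted log2 fold change was below 0 at 12 and above 0 at 11 of the 23, with a median of -0.07, beside -0.05 over all tested windows. The 85 tested PCG windows elsewhere that hold no small RNA gene had a median of 0.41 and no call. The 41 histone windows that did not pass the filter were not tested, and a median over those that passed describes these alone.

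The best-read windows moved little. H2BC11 averaged 19.5 ± 1.79 CPM in the control and 18.6 ± 1.17 CPM in the La libraries (SD, n = 3), with overlapping ranges. Its log2 fold change was -0.07 (SE 0.27, 95% interval -0.68 to 0.53, edgeR adjusted p = 0.864). H1-2 had 12.6 ± 2.21 and 11.9 ± 2.41 CPM and a log2 fold change of -0.08 (interval -0.78 to 0.62). H1-4 had 11 ± 2.93 and 10.3 ± 3.49 CPM and a log2 fold change of -0.09 (interval -0.91 to 0.72). These 3 intervals leave room for changes in either direction, so equality of the arms was not shown. The identical copies H4C14 and H4C15 gave -0.34 (interval -1.12 to 0.43) and -0.33 (interval -1.03 to 0.37), both with overlapping ranges. With upper quartile scaling these values were -0.028 and -0.014, and H4C14 ran from -0.60 without La replicate 1 to -0.18 without La replicate 3. The intervals, which are not adjusted over windows, spanned 0 at 17 of the 20 best-read windows.

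The remaining 3 were H4C3, H2AC6 and H2AC18, and none passed the adjusted threshold. H4C3 (HIST1H4C, chr6:26103783-26104182) held 20, 16 and 17 control counts and 11, 4 and 5 La counts. The arms did not overlap, at 4.79 ± 0.410 and 2.23 ± 1.495 CPM (SD, n = 3), and the log2 fold change was -1.13 (interval -2.16 to -0.09, edgeR adjusted p = 0.178). H2AC6 (HIST1H2AC, chr6:26124022-26124421) held 19, 15 and 18 control counts and 9, 5 and 9 La counts, again without overlap, and its log2 fold change was -0.91 (interval -1.80 to -0.02, edgeR adjusted p = 0.198). H2AC18 (HIST2H2AA3, chr1:149842501-149842900) held 10, 4 and 12 control counts and 25, 11 and 16 La counts. Raw counts overlapped, but the CPM ranges lay just apart, with means of 2.30 and 5.75 CPM. Its log2 fold change was 1.27 (interval 0.17 to 2.37, edgeR adjusted p = 0.157), and 0.80 without La replicate 1, its highest library. The adjusted p of H2AC18 ran from 0.0584 to 0.581 over the alternatives, that of H4C3 from 0.112 to 0.581 and that of H2AC6 from 0.170 to 0.581. H2AC19, whose upstream sequence printed above is the same as that of H2AC18 apart from a shift of 1 base, had 9, 16 and 13 control counts and 11, 11 and 12 La counts and a log2 fold change of 0.07. H2BC12, which codes for an H2B, was the other window without overlap, at 5.11 ± 1.73 and 7.69 ± 0.175 CPM, and its log2 fold change was 0.59 (SE 0.36, edgeR adjusted p = 0.298). That value was 0.34 without control replicate 3, its lowest library, and 0.91 with upper quartile scaling (edgeR adjusted p = 0.0979).

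**Figure D5:**
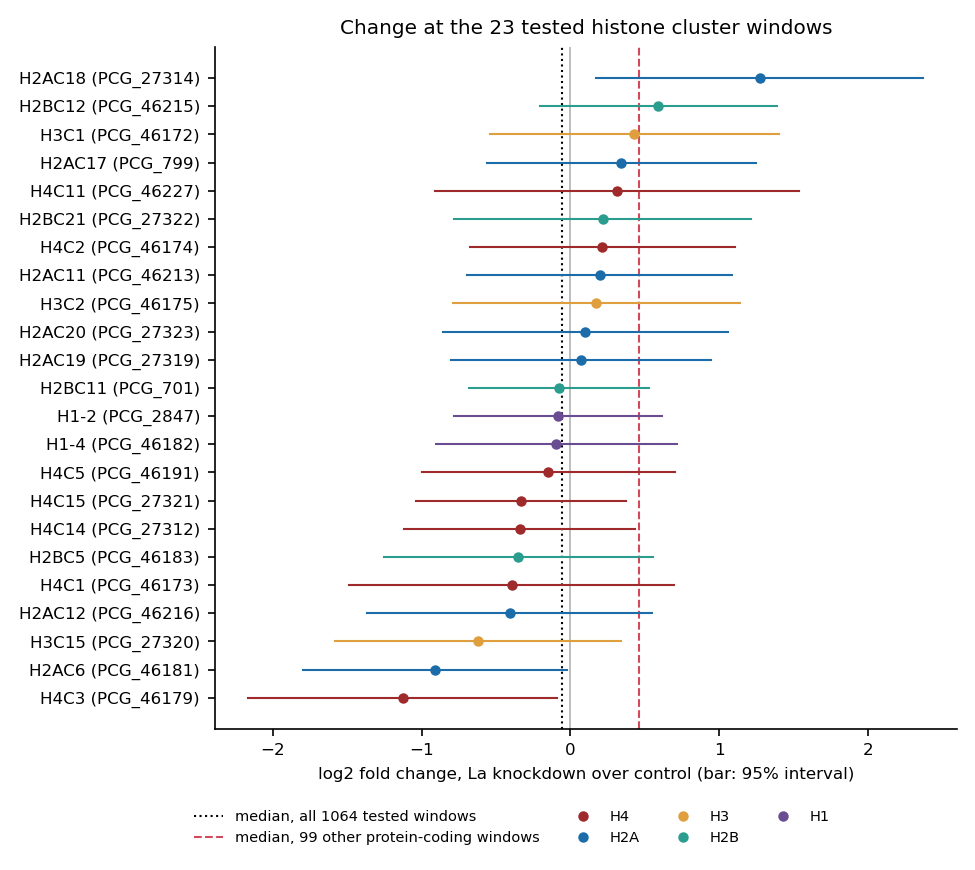
Log2 fold change of La knockdown over control (horizontal axis) at the 23 tested histone windows, coloured by family, with bars for the unadjusted 95% interval. The dotted line is the median of all tested windows. The dashed line is the median, 0.46, of the 99 tested protein-coding windows outside the stretches, including those that hold small RNA genes. The points lie on both sides of 0, from -1.13 at H4C3 to 1.27 at H2AC18, and most bars cross 0.

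Summed over families, the arms overlapped in every family. H1 windows held 24.4 ± 4.54 CPM in the control and 22.8 ± 1.73 in the La libraries. H2A windows held 36.6 ± 1.70 and 41.8 ± 10.7 CPM, with La replicate 1 the highest at 52.0. H2B windows held 48.3 ± 1.90 and 50.05 ± 2.43 CPM, H3 windows 15.5 ± 3.35 and 16.0 ± 2.25, and H4 windows 45.3 ± 3.77 and 39.7 ± 5.42 (SD, n = 3 throughout). The log2 ratio of the arm means was -0.10 in H1 and -0.19 in H4, but 0.22 and 0.13 with upper quartile scaling, which moves the median of all tested windows by 0.32. By position, the stretch on chromosome 6 at 27.78 to 27.9 Mb was the one whose arms did not overlap, with 18.5, 19.2 and 17.6 CPM in the control and 30.5, 20.03 and 21.1 in the La libraries. La replicate 1 stood apart there, and the other 2 La libraries lay just above the control range.

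The total over all 64 windows was flat after TMM scaling and lower as a share of protein-coding counts. Scaled totals were 171 ± 6.45 CPM in the control and 171 ± 15.03 CPM in the La libraries. Raw totals were 682, 564 and 644 control counts and 525, 565 and 506 La counts, or 0.0175% ± 0.000946 and 0.0166% ± 0.000549 of all counts, with overlapping ranges. Of the counts in PCG windows the histone windows held 3.07, 2.92 and 2.85% in the control and 2.33, 2.03 and 2.11% in the La libraries, without overlap. Without PCG windows that hold small RNA genes, the shares were 4.95% ± 1.01 and 3.61% ± 0.405, again without overlap. Mean counts over all PCG windows were 21367 in the control and 24767 in the La libraries with overlapping ranges, and mean raw counts over the histone windows were 630 and 532, also with overlapping ranges. The 2 mean raw totals thus differed in opposite directions.

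Neighbours and related genes gave the following values. The stretches also hold 9 tRNA windows, of which 6 were tested: all 6 had a fitted value below 0, from -1.11 to -0.23 with a median of -0.65, and none passed the threshold (lowest edgeR adjusted p = 0.140). A further 37 histone genes, which include variants made outside S phase, named none of the chosen windows. They were listed by name, so those without a window can lie inside the stretches. Of the 37, 17 had a window outside the stretches, and 21 of their 23 windows were read. Only the windows of H2BC18 and H3C13 were tested, and 0 were called. H2BC18 held 15, 12 and 13 control counts and 9, 20 and 8 La counts, with a log2 fold change of 0.11. H3C13 held 24, 14 and 23 and then 24, 14 and 10, with a log2 fold change of -0.07. Both belong to the histone genes next to the chromosome 1 stretch. The genes of 23 factors that transcribe histone genes or process their mRNA had 33 windows, 25 with a read. None of the 33 passed the filter, and the highest mean was 5 counts, at SYMPK, which codes for a scaffold of the processing complex.

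In the authors' deposited table, which covers all 53603 windows, 82 windows (0.153%) had an adjusted p under 0.05, and 0 of the 64 histone windows were among them. The authors' deposited table gave every histone window an adjusted p of 1. The authors' unadjusted p was under 0.05 at 4 histone windows. How many of all 53603 windows had such a p was not counted, so these 4 cannot be set against a background. In the authors' deposited table their log2 fold changes were -2.63 at H2BC7, -1.98 at H2AC16, -1.38 at H4C3 and -1.16 at H2AC6. H2BC7 and H2AC16 averaged 1.5 and 2.67 counts per library and did not pass the filter used here. At each of the 20 best-read windows the authors' log2 fold change lay below the edgeR value fitted here. It was -0.34 at H2BC11, -0.33 at H1-2, -0.39 at H1-4, -0.63 at H4C14 and -0.19 at H2AC19, against 0.07 here. Among these 20, only H2AC18, H2BC12 and H2AC17 were above 0 by the authors' values, at 1.01, 0.33 and 0.07. The near-even split around 0 found here was thus absent from the authors' values for these windows. It was also absent from the edgeR fit here without a filter, where again only H2AC18, H2BC12 and H2AC17 were above 0. That unfiltered fit gave -0.32 at H2BC11, -0.33 at H1-2, -0.37 at H1-4, -0.61 at H4C14 and -0.17 at H2AC19. The split around 0 thus depended on the filter used here. The cause of the difference from the authors' values was not tested.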

How the data were processed

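Small RNA counts of 3 control and 3 La knockdown HEK293T libraries were analysed. The deposited counts are raw reads per 400 bp window, per the file headers, and no count column belonged to another sample. The submitters' processing notes name Trim Galore, Bowtie2, bedtools and edgeR and the builds GRCh38 and hg38. Their settings and versions, strand, the counting rule and how multiply placed reads were treated are not given in the sources used here. The authors' deposited table gives per window the log2 fold change, the mean log2 CPM, F (a score) and p-values, raw and adjusted.

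Windows took the name of the nearest RefSeq or GENCODE 29 start within 100 bp, and 55 of the 64 start sites matched exactly. Counts were fitted with edgeR 4.0.16 in R 4.3.3: default filterByExpr, TMM factors, a quasi-likelihood fit of the arm to all 6 libraries, and Benjamini-Hochberg adjustment over 1064 windows at 0.05. Standard errors came from the fold change and the F statistic, and intervals from the t distribution with the fit's degrees of freedom. Alternatives were other scalings (RLE, library size alone, upper quartile), DESeq2 1.42.0, other filters, a replicate block, each library left out, and overlapping windows left out or counted once. The fit was tested on simulated data. Figures were drawn with matplotlib 3.10.9.

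Windows were named in the text where they averaged at least 10 counts. Others were named after their values were seen, as examples of pairs, unread genes, window positions or the authors' values. The members and the gene lists were chosen with earlier results of these data known. Libraries held 3066299 to 4105806 counts, so a window of 10 counts rests on few reads, and intervals cover the spread of 3 libraries per arm. Deviations of libraries with the same number correlated at 0.139, 0.230 and -0.459. Libraries with different numbers were not compared, so these values cannot decide whether the numbers pair the arms.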

Additional observations from a re-analysis of the deposited data

How the results depend on the processing

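No histone window was called in either direction under any of the alternatives that were run, and the lowest adjusted p over them was 0.0584. How many of all windows were called under each alternative was not counted. The absence of histone calls there therefore cannot be set against a background. Between 8 and 58 histone windows were tested, depending on the filter. Their median log2 fold change was -0.07 as reported, -0.12 to 0.045 with 1 library left out and 0.24 with upper quartile scaling. That scaling moved the median of all tested windows by 0.32, from -0.05 to 0.26. The histone median minus that of all tested windows ran from -0.14 to 0.08 over scalings, filters and left-out libraries, and the histone median minus that of other PCG windows from -0.75 to -0.17. These other PCG windows include those that hold small RNA genes, and their median was 0.46 in the main fit. With the replicate block the histone median was -0.072, the lowest adjusted p was 0.0713 and no call changed.

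The histone share of all counts differed by -0.000891 percentage points, by -0.00132 to -0.000381 with 1 library left out and, as a share of PCG counts, by -0.789. Log2 ratios of summed CPM with upper quartile scaling were 0.22 in H1, 0.51 in H2A, 0.37 in H2B, 0.36 in H3 and 0.13 in H4. The H2B ratio was also 0.13 over windows that overlap no other class, 0.125 with RLE factors and -0.026 with library size alone. With 1 library left out the ratios ran from -0.20 to 0.058 in H1, 0.0068 to 0.37 in H2A, 0.029 to 0.092 in H2B, -0.080 to 0.23 in H3 and -0.29 to -0.091 in H4.

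Of 248 values of the 20 best-read windows under alternatives, 26 turned direction, all of them uncalled, and the cause was not tested. With upper quartile scaling, log2 fold changes were 0.24 at H1-2 and H2BC11, 0.23 at H1-4 and 0.18 at H4C5. H2AC19 gave -0.011 with library size alone. Without a filter, H2AC19 gave -0.17, H2BC21 -0.049, H2AC20 -0.14, H4C2 -0.023, H3C2 -0.090 and H2AC11 -0.044. With 1 library left out the ranges were -0.14 to 0.33 at H2AC19, -0.33 to 0.49 at H2BC21, -0.25 to 0.37 at H2AC20, -0.045 to 0.60 at H4C2, -0.26 to 0.39 at H3C2, -0.32 to 0.033 at H1-2, -0.37 to 0.13 at H1-4, -0.38 to 0.13 at H4C5, -0.20 to 0.0073 at H2BC11 and -0.17 to 0.49 at H2AC11. The 20 best-read windows average 11.5 to 65.2 counts per library, which limits the precision of each value.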
